A study of Mus musculus with 2 samples.

Results

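The mitochondrial genome of the mouse holds 37 annotated genes, and all of them were followed here in regulatory T cells (Treg, CD4 T cells that hold immune responses in check). They are the genes whose GENCODE M21 symbol starts with mt-, 37 of 55536 annotated genes: 13 encode proteins, 2 encode ribosomal RNAs and 22 encode transfer RNAs. This symbol rule uses no expression value, but the genes were chosen with earlier results of these data known.

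Mammalian mitochondrial DNA is a small circle that is transcribed from both strands into long precursors carrying many genes each. Most protein and rRNA genes are separated by tRNA genes, and the precursors are cut at the ends of these tRNAs by RNase P and ELAC2, which frees the RNAs between them. The released messengers receive short poly(A) tails from the polymerase MTPAP and are held stable by LRPPRC and SLIRP. The proteins made from them are subunits of the respiratory chain and of ATP synthase, where they join subunits imported from the cytosol, and regulatory T cells are known to lean on this oxidative metabolism.

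The data are polyA plus RNA-seq of primary Treg cells of a male mouse aged 9 weeks, in 2 libraries given as technical replicates of 1 biosample. There was 1 group and no contrast of conditions. The sources used here give no sorting markers, strain, strandedness or read length. Values are given for library 1 and then library 2, and a spread written as SD (n = 2) is between technical libraries and does not cover other animals.

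Over annotated genes, estimated counts totalled 34697128 in library 1 and 32049199 in library 2. All 10 T cell and Treg identity markers were at or above 1 TPM (a length-corrected transcript level scaled to a fixed total) in both libraries, with Foxp3, the lineage-defining transcription factor, at 109 ± 1.68 TPM (SD, n = 2) and the T cell receptor chain Cd3e at 1098 ± 27.1 TPM. Among markers of other cells, the 5 red cell genes summed to 383 and 351 TPM, the 4 B cell genes to 45.8 and 40.3, the 4 myeloid genes to 23.1 and 17.4 and the 4 platelet genes to 1.59 and 2.00. None of these markers was at 0 in both libraries, and their part in the mitochondrial levels was not tested. In such bulk RNA, fewer cells of a type and less RNA per cell cannot be told apart.

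Several features of the sequence bear on how these genes can be counted. The last bases of the 13 protein genes are printed 5′ to 3′ on the coding strand, from the GENCODE M21 transcripts on GRCm38 (mm10), with the stop codon or what there is of it in capitals, since a reading frame that ends in a lone T becomes a stop codon only when the poly(A) tail is added.
mt-Nd1: ccatacataTAG
mt-Nd2: ctaattaccTAG
mt-Co1: aaagtaaaaTAA
mt-Co2: tcaataattTAA
mt-Atp8: ccccaacaaTAA
mt-Atp6: gataatacaTAA
mt-Co3: tgatgaggatctT
mt-Nd3: tgaacagagTAA
mt-Nd4l: ctacaatgcTAA
mt-Nd4: ggcctgacaataT
mt-Nd5: aatctcgagTAA
mt-Nd6: actcgagatTAA
mt-Cytb: aaattatatccaT
In 10 of these genes the annotated frame closes with a complete TAA or TAG. In mt-Co3, mt-Nd4 and mt-Cytb it stops 1 base past the last whole codon, after 261, 459 and 381 codons. Each of these 3 genes is followed by a plus-strand tRNA gene: mt-Co3 (chrM:8607-9390) by mt-Tg from 9391, mt-Nd4 (chrM:10167-11544) by mt-Th from 11546 and mt-Cytb (chrM:14145-15288) by mt-Tt from 15289. The frames of 9 genes open with ATG, whereas mt-Nd1 opens with GTG, mt-Nd2 with ATA, mt-Nd3 with ATT and mt-Nd5 with ATC.

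The genome is compact enough that neighbouring frames share bases. The end of mt-Atp8 lies inside the start of mt-Atp6, a stretch of 43 bases at chrM:7927-7969 on the plus strand, in which the capitals mark the start codon of mt-Atp6 and the stop codon of mt-Atp8.
mt-Atp8 and mt-Atp6 overlap: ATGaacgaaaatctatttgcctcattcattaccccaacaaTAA
mt-Nd4l and mt-Nd4 share 7 bases in the same way. Both overlaps are shorter than 50 bases, so no window of that length lies wholly inside either of them.

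Most genes lie on the plus strand of the reference: 12 of the protein genes, both rRNA genes and 14 tRNA genes. The minus strand holds mt-Nd6 and 8 tRNA genes. Of these 8, mt-Ts1 (a serine tRNA, chrM:6870-6938) and mt-Te (the glutamate tRNA, chrM:14071-14139) carried far more reads than the others, and their gene sequences are printed on the minus strand.
mt-Ts1: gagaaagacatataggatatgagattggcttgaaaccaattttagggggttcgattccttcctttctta
mt-Te: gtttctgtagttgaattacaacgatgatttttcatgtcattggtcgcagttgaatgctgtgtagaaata

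All 37 genes together made up 3.10% of TPM for library 1 and 3.51% for library 2, and 1.41% and 1.72% of the estimated counts. The 13 protein genes took 2.31% and 2.51% of TPM (394449 and 419789 estimated counts). The 2 rRNA genes took 0.319% and 0.452% of TPM (92857 and 128908 counts). The 22 tRNA genes took 0.465% and 0.552% of TPM, which is more than the rRNA genes in both libraries, on only 1949 and 2246 counts. The order of rRNA and tRNA on the TPM scale is thus opposite to that of the reads behind it. The deposited TPM rests on an effective length that equals the gene length less 49 bases for all 37 members, so a tRNA row of 69 bases is divided by 20 possible read starts and each of its reads weighs heavily.

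**Figure D1:**
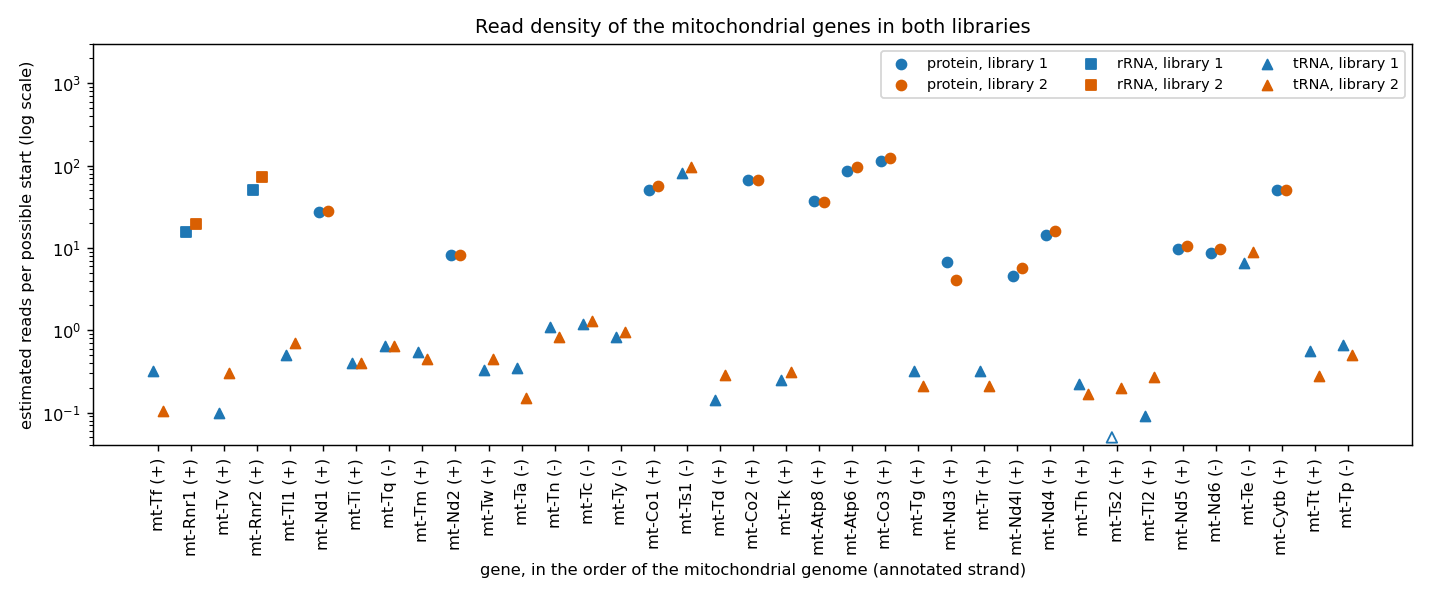
Estimated reads per possible start position (log scale) of the 37 mitochondrial genes in genome order, in library 1 (blue) and library 2 (orange), with circles for protein genes, squares for rRNA genes and triangles for tRNA genes; the open triangle is a gene listed at 0. Of the tRNA genes, mt-Ts1 at 82.15 and 94.95 and mt-Te at 6.65 and 8.90 stand apart from the other 20, which reach at most 1.18 and 1.29.

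The 3 mitochondrial subunits of complex IV, the cytochrome c oxidase that passes electrons to oxygen, made up 47.9% and 48.05% of the deposited TPM of the 13 protein genes. Shares by posterior mean TPM, which divides reads otherwise with nuclear copies, were not computed. By the deposited TPM mt-Co3 had the highest level of any mitochondrial gene, at 5399 and 5954 TPM, and ranked 5 among all genes in both libraries. mt-Co2, which holds the first copper site that receives electrons, stood at 3204 and 3234 TPM. mt-Co1, the catalytic core that holds the haems, stood at 2392 and 2769 TPM. By the deposited TPM the order was mt-Co3, mt-Co2, mt-Co1 in both libraries. The first place of mt-Co3 and the places of mt-Co1 and mt-Co2 depended on how reads were divided with nuclear copies, which are described further on. By posterior mean TPM mt-Co3 stood at 3410 and 3651, behind mt-Atp6 at 3415 and 3730, while mt-Co1 stood at 2226 and 2572 and mt-Co2 at 2287 and 2272. With the reads of its chromosome 1 copy added, mt-Co1 had 70.4 and 78.3 reads per start position and mt-Co2 68.1 and 67.1. On the same scale mt-Co3 had 125.7 and 131.8, and mt-Atp6 136.6 and 129.9.

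The 2 ATP synthase genes came next, with 25.4% and 25.9% of the protein genes' deposited TPM. mt-Atp6, which forms part of the proton channel, stood at 4077 and 4706 TPM. mt-Atp8, a small membrane subunit, stood at 1759 and 1741 TPM. Although their frames overlap and they are known to share a messenger, mt-Atp6 exceeded mt-Atp8 2.32-fold and 2.70-fold in TPM.

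mt-Cytb, the cytochrome b of complex III, stood at 2376 and 2467 TPM and made up 10.3% and 9.91% of the protein genes' TPM.

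The 7 complex I genes, subunits of the membrane arm of the NADH dehydrogenase that pumps protons, together made up only 16.4% and 16.1%. mt-Nd1 was the highest of them at 1281 and 1353 TPM, followed by mt-Nd4 at 686 and 785 TPM. mt-Nd5 stood at 463 and 515 TPM, mt-Nd6 at 408 and 479 TPM and mt-Nd2 at 393 and 404 TPM. The lowest by the deposited TPM were mt-Nd3 at 318 and 201 TPM and mt-Nd4l at 217 and 280 TPM. With the reads of its chromosome 1 copy added, mt-Nd3 had 8.94 and 8.28 reads per start position. On the same scale mt-Nd2 had 8.31 and 8.28, and mt-Nd4l 4.59 and 5.75. By the deposited TPM mt-Co3 exceeded mt-Nd4l by a factor of 24.8 in library 1 and 21.3 in library 2, although both lie on the same strand. In library 2 the lowest protein gene was mt-Nd3, at 201 TPM. mt-Nd4l and mt-Nd4, which like the ATP synthase pair are known to share a messenger, differed 3.16-fold and 2.80-fold in TPM.

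The levels followed neither place nor size closely. Across the 12 plus-strand protein genes, Spearman's rho of genome order against TPM was -0.20 in library 1 and -0.19 in library 2. Across the 13 protein genes, rho of length against TPM was 0.20 and 0.19. Genes are not independent replicates, and all these points share the same libraries.

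Some neighbours in the order of levels could not be separated by the libraries. Ranges overlapped between mt-Co2 and mt-Rnr2, mt-Rnr2 and mt-Co1, mt-Co1 and mt-Cytb, mt-Rnr1 and mt-Nd4, mt-Nd5 and mt-Nd6, and mt-Nd3 and mt-Nd4l. mt-Co2 with mt-Rnr2 and mt-Nd3 with mt-Nd4l changed places between the libraries. The deposited posterior mean TPM, a second estimate from the same reads, put mt-Atp6 ahead of mt-Co3 and moved mt-Co2 from the third place to the fifth.

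mt-Nd6 is the only protein gene on the minus strand, and its messenger is known to lack a stable poly(A) tail. Its level was 26.8% and 31.0% of the median of the other 12 protein genes (28.9 ± 2.95%, SD, n = 2). By the deposited TPM it still exceeded the plus-strand genes mt-Nd2, mt-Nd3 and mt-Nd4l in both libraries. For mt-Nd3 this depended on how reads were divided with its chromosome 1 copy. With the reads of that copy added, mt-Nd3 had 8.94 and 8.28 reads per start position, beside 8.61 and 9.84 for mt-Nd6. The annotated mt-Nd6 (chrM:13552-14070) lies beside mt-Nd5 (chrM:11742-13565) and shares bases with its end. In human cells the ND5 messenger is known to run on past its frame opposite to ND6. As the strandedness of these libraries is not given, reads of mt-Nd6 and reads of the opposite strand cannot be told apart.

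Mitochondrial rRNA is known to carry only short A tails, which selection for poly(A) may capture poorly. Its loss in these libraries was not tested, and its level here is not taken as its level in the cell. mt-Rnr2, the rRNA of the large ribosomal subunit, stood at 2423 and 3530 TPM (78532 and 111034 counts). mt-Rnr1, the rRNA of the small subunit, stood at 748 and 961 TPM (14325 and 17874 counts). The ratio of mt-Rnr2 to mt-Rnr1 was 3.24 and 3.67, and mt-Rnr2 stood at 1.89 and 2.61 times the median of the protein genes.

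Mature tRNAs end in CCA and carry no poly(A) tail, and their rows have only 10 to 26 possible read starts each. Most tRNA genes had few counts, and the part of either in this was not tested. Without mt-Ts1 and mt-Te, the 20 other genes held 173 counts in library 1 and 169 in library 2. Among the 14 plus-strand tRNA genes the counts ran from 0 to 13 in library 1 and from 2 to 18 in library 2. Among the 6 others on the minus strand they ran from 7 to 24 and from 3 to 22: besides mt-Tn and mt-Tc these are mt-Ty (tyrosine, 15 and 17), mt-Tq (glutamine, 14 and 14), mt-Tp (proline, 12 and 9) and mt-Ta (alanine, 7 and 3). On the plus strand the highest was mt-Tl1, a leucine tRNA beside mt-Rnr2, with 13 and 18 counts, followed by mt-Tm (methionine) with 11 and 9, mt-Tt (threonine) with 10 and 5 and mt-Ti (isoleucine) with 8 and 8. The other 10 plus-strand genes, mt-Tf, mt-Tv, mt-Tw, mt-Td, mt-Tk, mt-Tg, mt-Tr, mt-Th, mt-Ts2 and mt-Tl2, had at most 8 counts in either library. The highest of the 20 was mt-Tn (asparagine) with 24 and 18 counts or mt-Tc (cysteine) with 20 and 22, depending on the library. mt-Ts2, the other serine tRNA, had 0 counts in library 1, which allows up to 3, and 2 in library 2. Of the 22 tRNA genes, 15 reached a summed count of 10 and could be compared between the libraries.

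mt-Ts1 alone held 1643 and 1899 counts, which is 84.1% and 84.4% of the TPM of all 22 tRNA genes. At 3886 and 4627 TPM it ranked 14 and 10 among all genes. Its density of 82.15 and 94.95 reads per start position was 1.62 and 1.67 times that of mt-Co1, at 50.6 and 56.8. The gene lies on the minus strand directly against the plus-strand mt-Co1 (chrM:5328-6872) and overlaps its last bases. In human cells the CO1 messenger is known to keep a 3′ extension antisense to this tRNA. Reads of the tRNA and of such an extension cannot be told apart without strand.

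mt-Te held 133 and 178 counts, at 315 and 434 TPM. It lies next to mt-Nd6 on the same strand, and its density of 6.65 and 8.90 reads per start position was 0.772 and 0.905 times that of mt-Nd6, at 8.61 and 9.84. mt-Ts1 exceeded mt-Te 12.4-fold and 10.7-fold in TPM. Both tRNA genes with many reads thus lie next to a protein gene. The density of mt-Ts1 was within 2-fold of that of mt-Co1, and that of mt-Te within 2-fold of that of mt-Nd6. On its other side mt-Te lies beside the plus-strand mt-Cytb, from chrM:14145, and was far below its 50.2 and 50.6 reads per start position. The cause was not tested. Other tRNA genes that abut or closely follow a protein gene were low all the same: mt-Tg after mt-Co3, mt-Tt after mt-Cytb and mt-Tk after mt-Co2 had at most 10 counts in either library.

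A stretch of nuclear DNA on chromosome 1 is a near-complete copy of a run of these genes, and the reads of some members are divided with it. GENCODE M21 annotates 7 unprocessed pseudogenes there on the minus strand, from chr1:24611535-24616197 (4663 bases), in the order of chrM:6381-11042 (4662 bases). Gm28661 is identical to mt-Co2 over 681 bases, Gm10925 to mt-Atp6 over 678, Gm28437 to mt-Co3 over 783, Gm10222 to mt-Nd4l over 294 and Gm28439 to the first 876 bases of mt-Nd4. Gm29216 differs from the last 492 bases of mt-Co1 at 6 positions, and Gm28438 from mt-Nd3 at 1. The gaps between successive copies equal those of the mitochondrial genome to the base at 5 of 6 junctions, and the sixth is 74 bases against 73.

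The few bases that tell copy from gene are shown because every other base of a copy is uninformative to a counting model. The capitals mark the differing bases. The mitochondrial windows are at chrM:6381-6407 and chrM:9459-9475 on the plus strand, and the nuclear ones at chr1:24616171-24616197 and chr1:24613103-24613119 on the minus strand.
mt-Co1: ggTCtAAcCggaAttgttttatccaac
Gm29216: ggATtGGcAggaTttgttttatccaac
mt-Nd3: atTaacctgtacactgt
Gm28438: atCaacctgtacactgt
With positions counted from 1 at the start of each mitochondrial gene, the differences are T1056A, C1057T, A1059G, A1060G, C1062A and A1066T in mt-Co1 and T3C in mt-Nd3. All lie at the start of the copied piece, so the rest of each copy reads the same as the mitochondrial gene.

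Read against windows of 50 bases, 100% of the start positions of mt-Co2 were shared with another annotated row, as were 99.9% for mt-Co3, 99.5% for mt-Atp6, 98.8% for mt-Nd4l and 98.0% for mt-Nd3. The share was 62.2% for mt-Nd4 and 51.1% for mt-Co1. Of the 1496 start positions of mt-Co1, 430 were shared with Gm29216, and others only with Gm13340 or Gm11512, which lie on chromosomes 2 and 11. It was 8.19% for mt-Nd2, 7.61% for mt-Nd5 and 1.04% for mt-Rnr2, in each case with rows other than the chromosome 1 copies. The share was 0 for the other members, including mt-Atp8 and all tRNA genes. mt-Atp8 and the tRNA genes mt-Ts1, mt-Td, mt-Tk, mt-Tg and mt-Tr lie inside the copied stretch, but no copy of them is annotated as a gene.

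The deposited estimates placed very different shares of the ambiguous reads on the copies. Gm10925 took 31861 counts in library 1 and 21090 in library 2, which is 36.9% and 25.7% of the reads of mt-Atp6 and its copy together. Gm29216 took 29627 and 32196 counts, 28.1% and 27.5% of its pair with mt-Co1. Gm28438 took 660 and 1243 counts, 24.7% and 50.2% of its pair with mt-Nd3.

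The identical copies differed among themselves. Gm28437 took 9.18% and 7.28% of its pair with mt-Co3, Gm28661 0.596% and 1.16% of its pair with mt-Co2, and Gm10222 and Gm28439 stood at 0 counts in both libraries. By posterior mean counts the copies instead took 38.4% and 38.8% of the mt-Co3 pair and 23.7% and 25.2% of the mt-Co2 pair, while for the mt-Co1 pair the share stayed at 28.1% and 27.5%. The deposited posterior SD was 3988 and 3913 counts for mt-Co3, on posterior means of 56939 and 59290, and 159 and 168 counts for mt-Co1. For mt-Co3 the estimated counts of 83884 and 89803 lie several such SDs above the posterior means.

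**Figure D2:**
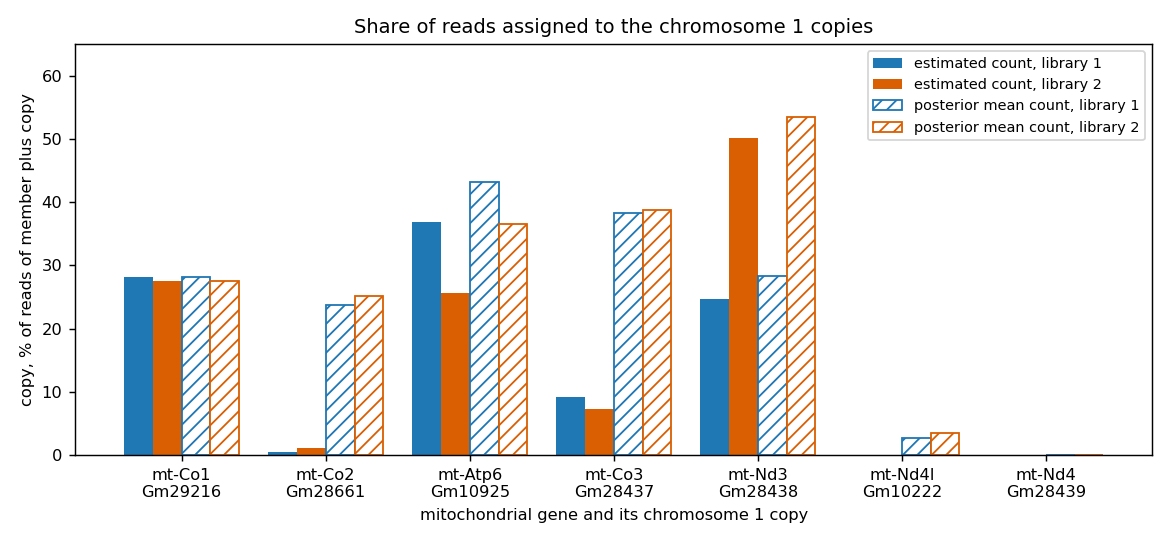
Share of the reads of each mitochondrial gene and its chromosome 1 copy that was assigned to the copy, in percent, by estimated count (filled bars) and by posterior mean count (hatched bars) in library 1 (blue) and library 2 (orange). For mt-Co2 and mt-Co3, whose copies are identical to them, the estimates differ most, and for mt-Nd3 the copy's share rises from 24.7% to 50.2% between the libraries.

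Without Gm10222, which had no counts, the 6 other copies summed to 70883 and 62071 counts, 12.7% and 10.1% of copies plus all 37 members, and 0.627% and 0.593% of TPM. Whether chromosome 1 is transcribed at these copies was not tested. Elsewhere in the nuclear genome, 10 other annotated genes whose transcripts matched a member over at least 100 bases at 90% identity held 63.4 and 72.3 counts in all. With the reads of Gm10925 returned to mt-Atp6, the density of mt-Atp6 was 3.67 and 3.64 times that of mt-Atp8, so the ratio rose and its libraries drew together.

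The whole-number counts on the earlier GENCODE M4 annotation, made from genome alignments, gave another picture of the same libraries. They list the 13 protein genes and none of the rRNA genes, tRNA genes or copies. Exactly 6 genes stood at 0 in both libraries: mt-Co2, mt-Atp8, mt-Atp6, mt-Co3, mt-Nd3 and mt-Nd4l, the 6 protein genes that lie wholly inside the copied stretch. mt-Atp8 was among them although none of its windows is shared with an annotated M21 row, and it held 5764 and 5538 estimated counts in the M21 tables. These 0 values are thus no measure of expression.

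The 7 other protein genes had M4 counts far below their M21 estimates. mt-Nd5 had 3043 and 3069, mt-Cytb 2222 and 2217, mt-Nd1 1841 and 1859, and mt-Nd2 1569 and 1604. mt-Co1 had 1387 and 1406, mt-Nd4 1025 and 1029, and mt-Nd6 931 and 939. These are between 1.83% and 23.0% of the M21 estimated counts in library 1 and between 1.65% and 20.3% in library 2.

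Per annotated base the M4 counts spanned a narrower range than the M21 estimates. They ran from 0.744 and 0.747 for mt-Nd4 to 1.94 and 1.94 for mt-Cytb and 1.92 and 1.94 for mt-Nd1, with mt-Nd6 at 1.79 and 1.81, and no gene reached 2 reads per base. Over the same genes the M21 estimates per annotated base ran from 7.80 and 8.91 for mt-Nd6, or 7.92 and 7.89 for mt-Nd2, to 49.0 and 55.0 for mt-Co1. The M4 counts also barely differed between the libraries, although the M4 totals over all genes were 9576557 and 8937887. The sources used here do not say how reads were filtered before this count, and the cause was not tested.

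Both rRNA genes and most of the protein genes were higher in library 2 than in library 1. For each gene, an exact binomial test (two-sided) set the 2 estimated counts against TMM-scaled library sizes, with Benjamini-Hochberg adjustment over 18746 genes at 0.05. The test covers counting error only: reads made by PCR are not independent molecules, and it compares these libraries, not conditions. Of all genes tested it called 36.5%, 17.2% higher in library 2 and 19.2% lower. Of the 37 members, 7 tRNA genes had a summed count under 10 and 30 genes were tested, of which 15 were called higher in library 2 and 1 was called lower.

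The rRNA genes had the highest median log2 ratio of the 3 classes, 0.52. mt-Rnr2 was 1.53-fold higher in library 2 (log2 ratio 0.61) and mt-Rnr1 1.35-fold (0.43). Beside them, chosen after their values were seen, the nuclear rRNA row CT010467.1 went from 5957 to 6890 TPM (log2 ratio 0.28), and Rn7sk, a small nuclear RNA without a poly(A) tail, from 51.5 to 96.8 TPM (log2 ratio 0.98, adjusted p = 6.65e-21 by the exact binomial test). Whether carry-over of RNA without poly(A) tails differed between the libraries, and its part in the rRNA result, was not tested.

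Of the 13 protein genes 11 were called higher in library 2, 1 was called lower and mt-Atp8 was not called (log2 ratio 0.06, adjusted p = 0.0885 by the exact binomial test). Their median log2 ratio was 0.21, beside 0.00 for all genes tested. The called increases ran from 0.09 for mt-Co2 and 0.11 for mt-Nd2 to 0.31 for mt-Nd6 and 0.44 for mt-Nd4l. Among the 15 tRNA genes tested, mt-Ts1 was higher by 0.32 on the log2 scale (adjusted p = 5.97e-10, exact binomial test) and mt-Te by 0.53 (adjusted p = 0.00505), and the other 13 were not called.

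mt-Nd3 went the other way, with 2012 counts in library 1 and 1233 in library 2, a log2 ratio of -0.59 (adjusted p = 1.65e-28, exact binomial test). Its copy Gm28438 went the opposite way, from 660 to 1243 counts, a log2 ratio of 1.03. Summed, the pair held 2672 and 2476 counts, a log2 ratio of 0.00 with an adjusted p of 0.961 by the exact binomial test. The sum was nearly level while its division between gene and copy changed. For mt-Atp6 alone the log2 ratio was 0.28, for Gm10925 it was -0.48, and for the pair it was 0.04. With the copies summed in, the test called 36.4% of all genes, 17.2% higher and 19.2% lower. Of the protein genes 11 were called higher, none lower, and mt-Nd3 and mt-Atp8 were not called.

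**Figure D3:**
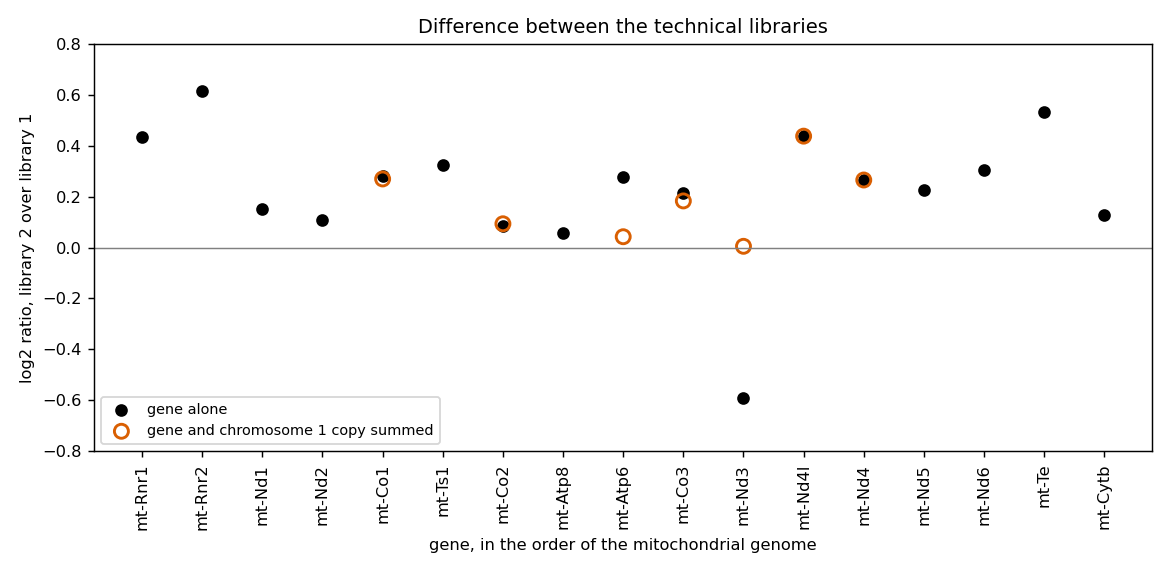
Log2 ratio of library 2 over library 1, scaled by TMM, for the protein and rRNA genes and the 2 tRNA genes with many reads, in genome order; filled points are the gene alone and open circles the gene and its chromosome 1 copy summed. mt-Nd3 moves from -0.59 to 0.00 and mt-Atp6 from 0.28 to 0.04 when the copy is added, while mt-Rnr2 at 0.61 is the highest.

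None of these differences passed a test that allows for scatter beyond counting error. edgeR's exact test with a common dispersion of 0.0228, estimated from both libraries as 1 group, called 2.98% of the genes tested (1.33% higher and 1.64% lower in library 2) and 0 of the 30 members. At an unadjusted p under 0.05 it marked 1 member, mt-Rnr2, whose adjusted p was 0.483 by edgeR's exact test. That of mt-Nd3 was 0.548. The dispersion was estimated from the same 2 libraries that were compared, so differences between them over all genes set the error of this test. A lack of calls therefore does not show that the libraries were alike.

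The respiratory complexes draw on both genomes, and for each of the 4 mixed complexes the mitochondrial messengers were the more abundant per gene. In complex IV the median of the 3 mitochondrial genes was 3204 and 3234 TPM against 221 and 237 TPM for the 19 nuclear subunit genes, 14.5 and 13.6 times as high. Over the 13 nuclear genes that reached 1 TPM in each library the nuclear medians were 325 and 357 TPM, and the ratio was 9.85 and 9.07. All 3 exceeded the top nuclear subunit, Cox4i1, at 617 and 661 TPM, and they made up 72.4% and 72.8% of the complex's summed TPM. For all 4 complexes the ratios and shares rest on the deposited TPM and were not computed by posterior mean TPM.

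In complex III mt-Cytb stood at 9.81 and 10.3 times the median of 9 nuclear genes and above the highest of them, Uqcrh, at 373 and 398 TPM. In ATP synthase the median of the mitochondrial pair was 9.05 and 9.20 times that of 16 nuclear genes. Both mt-Atp6 and mt-Atp8 exceeded the catalytic beta subunit gene Atp5b, at 1010 and 957 TPM.

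Complex I was closest to balance. The median of its 7 mitochondrial genes was 408 and 479 TPM against 151 and 159 TPM for 35 nuclear genes, 2.70 and 3.01 times as high. In library 1, mt-Nd1, mt-Nd4, mt-Nd5 and mt-Nd6 exceeded the top nuclear gene, Ndufa3, at 400 TPM, while mt-Nd2, at 393 TPM, did not. In library 2, where Ndufa3 stood at 393 TPM, mt-Nd2 exceeded it too, at 404 TPM. mt-Nd3 and mt-Nd4l lay within the nuclear range in both libraries. The mitochondrial genes made up 39.8% and 40.6% of the complex's summed TPM.

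**Figure D4:**
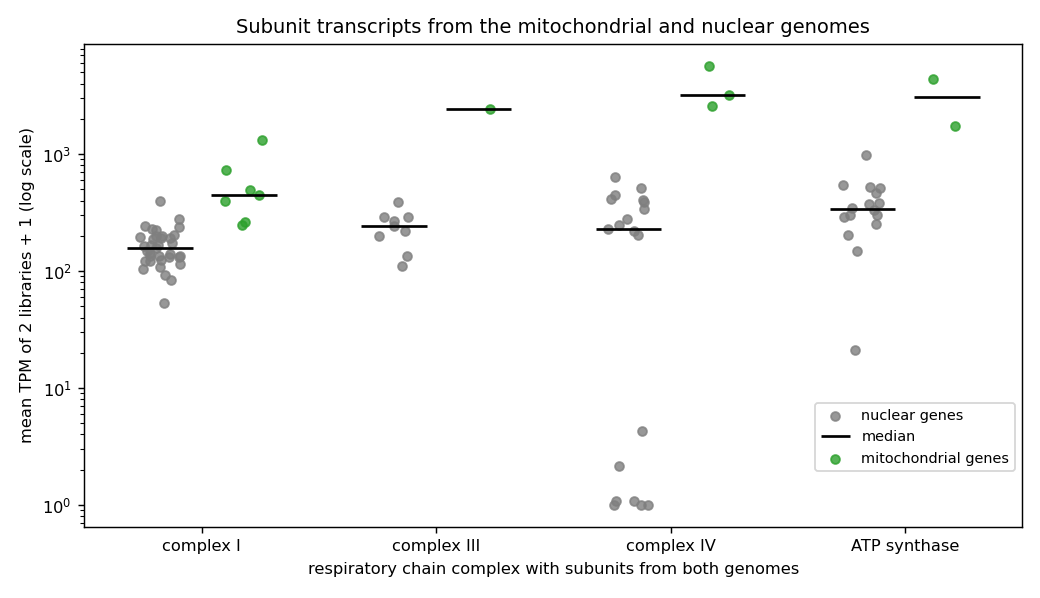
Mean TPM of the 2 libraries plus 1 (log scale) for the nuclear (grey) and mitochondrial (green) subunit genes of the 4 complexes that hold both, with 1 point per gene and a bar at each median. The mitochondrial medians lie above the nuclear ones in every complex, least so in complex I.

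The nuclear genes that serve the mitochondrial genome were followed in 7 lists of 186 genes for its replication, transcription, RNA processing, RNA stability and translation, and the nuclear subunits of the complexes in 5 lists of 83 genes. All 18 replication genes were at or above 1 TPM. They were led by the DNA polymerase gene Polg at 122 ± 1.98 TPM (SD, n = 2) and the deoxyguanosine kinase gene Dguok at 106 ± 3.38, with the packaging factor Tfam at 90.3 ± 1.29, the helicase Twnk at 13.5 ± 0.0566 and Tymp lowest at 1.46 ± 0.559. All 10 transcription genes were detected, with Mterf3 at 86.2 ± 4.26 TPM, Mrpl12 at 63.2 ± 5.90, the RNA polymerase Polrmt at 42.6 ± 5.64 and Tfb1m lowest at 7.08 ± 0.559.

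All 24 processing and modification genes were detected. The tRNA methyltransferase Nsun2 led at 123 ± 9.96 TPM, followed by the RNase P subunit Hsd17b10 at 79.6 ± 0.382. The nuclease Elac2, which cuts tRNA 3′ ends, stood at 33.3 ± 3.50 TPM, and the RNase P catalytic subunit, listed as 1110008L16Rik, was lowest at 6.83 ± 0.354.

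Of the messenger stability and decay list all 16 genes were detected. The oligoribonuclease Rexo2 at 249 ± 8.82 TPM and Fastk at 120 ± 5.28 led. The stabilising pair Lrpprc and Slirp stood at 36.8 ± 0.827 and 62.3 ± 0.552 TPM and the poly(A) polymerase Mtpap at 47.6 ± 0.467. The decay enzymes Pnpt1 and Supv3l1 stood at 33.4 ± 1.24 and 24.9 ± 2.92 TPM, with Fastkd5 lowest at 10.96 ± 0.587.

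All 14 translation factors were detected, from C1qbp at 110 ± 4.999 TPM and the elongation factor Tufm at 91.4 ± 1.20 down to Mtrf1 at 3.30 ± 0.764. The 83 mitochondrial ribosomal protein genes were all detected, with a median of 65.9 TPM, from Mrpl52 at 189 ± 13.02 and Mrps21 at 181 ± 1.48 to Mrpl23 at 4.23 ± 1.15. The 22 synthetase genes, which charge tRNAs, had a median of 25.2 TPM. Lars2, for leucine, stood far above the rest of that list at 223 and 341 TPM, ahead of Kars at 84.0 ± 0.368, and Mars2 was lowest at 3.29 ± 0.410.

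The nuclear subunit lists were higher. Medians were 155 TPM for complex I, 181 for complex II, 241 for complex III, 229 for the detected and undetected complex IV genes together and 336 for ATP synthase. Complex I ran from Ndufa3 and Ndufa7 at 397 ± 4.87 and 279 ± 19.0 TPM to Ndufb4 at 52.3 ± 5.01. Complex II, which has no mitochondrial gene, ran from Sdhb at 228 ± 4.86 and Sdha at 221 ± 17.0 to Sdhd at 131 ± 5.25.

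In complex III, Uqcrh at 385 ± 17.7 TPM and Uqcr10 at 289 ± 3.78 led and Uqcrfs1 was lowest at 110 ± 0.219. Of 19 complex IV genes 13 were detected, led by Cox4i1 at 639 ± 31.1 TPM and Cox6b1 at 513 ± 38.9, with Cox6b2 lowest at 3.28 ± 0.566. The 6 not at 1 TPM in both libraries were Cox4i2, Cox6a2, Cox7b2, Cox8b and Cox8c, below 1 TPM in each, and Cox7a1 at 0.41 and 1.87 TPM (3 and 14 counts), most of them known as isoforms of other tissues. ATP synthase ran from Atp5b at 983 ± 37.03 TPM and Atp5h at 545 ± 1.90 to Atp5g2 at 20.1 ± 2.65.

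Between the libraries, the exact binomial test called 18.8% of the 186 genes that serve the mitochondrial genome higher in library 2 and 14.5% lower, beside 17.2% and 19.2% of all genes tested. Their median log2 ratio was 0.03. Of the 83 subunit genes 78 were tested, 39 were called higher and 2 lower, with a median of 0.09. Among single lists, 12 of 35 complex I genes, 11 of the 14 tested complex IV genes, 11 of 16 ATP synthase genes and 22 of 83 ribosomal protein genes were called higher. In these lists 0, 0, 0 and 3 were called lower. Median log2 ratios were 0.08, 0.17, 0.14 and 0.07.

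In the other lists the calls were fewer or mixed. For replication 1 gene was higher and 4 lower, for processing 2 and 7, for synthetases 2 and 8, for messenger stability 4 and 4, for translation factors 2 and 1, and for transcription 3 and 0. In complex II the counts were 2 and 1, and in complex III 3 and 1. As examples of the genes named, Lars2 was higher by 0.68 on the log2 scale and Supv3l1 by 0.38. Elac2 was lower, at -0.13, and Tymp, at 77.9 and 43.3 counts, was lower, at -0.74. Other named genes were called too, in both directions. Among them Mrpl12 and Rexo2 were higher, at 0.27 and 0.15, and Mars2 and Nsun2 lower, at -0.18 and -0.10. Larger differences, named after their values were seen, were those of Cox7a1 at 2.17 and of 2 RNA modification genes: Cdk5rap1, which acts on tRNA, at 1.29 (553 and 1249 counts), and Mrm3, which acts on rRNA, at -0.91 (425 and 209 counts). With edgeR's exact test and the common dispersion, 1 of the 264 genes tested was called, Cdk5rap1 (adjusted p = 0.00534).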

How the data were processed

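For each library the authors deposited gene and transcript tables on GENCODE M21 from transcriptome alignments and a gene table on GENCODE M4 from genome alignments, both on mm10, per the lists of files deposited beside them. The M21 tables hold estimated counts (expected counts), TPM, FPKM and posterior means and SDs, per the file headers, and the M4 tables hold whole-number counts, as deposited. FPKM entered no result. Aligner, quantifier and counter: not given in the sources used here. Rows that name no annotated gene took 0.197% and 0.212% of the estimated counts and were left out of shares, totals and tests.

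The 37 members were matched by symbol, and the 12 nuclear lists by symbol. The members and lists were chosen with earlier results of these data known. The text names all members, and of each list the 2 highest genes, the lowest at 1 TPM or more, those under 1 TPM and 11 core factors. Lars2 is among them by level, and CT010467.1, Rn7sk, Cdk5rap1 and Mrm3 were added after their values were seen. The symbols Prorp, Gars1 and Kars1 had no match, and the synonyms 1110008L16Rik, Gars and Kars were used. Identifiers, coordinates (1-based) and sequences came from the GENCODE M21 annotation and transcripts.

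Estimated counts were rounded, filtered at a summed count of 10 and scaled by edgeR 4.0.16 TMM factors (1.00006 and 0.999944) in R 4.3.3. The libraries were compared by an exact binomial test (two-sided, scipy 1.17.1) with Benjamini-Hochberg adjustment, since 1 library a side leaves edgeR's quasi-likelihood test without residual degrees of freedom. Log2 ratios used a prior count of 0.5. The exact binomial test was tested on simulated counts without scatter beyond counting error. Alternatives were edgeR's exact test with a common dispersion, library totals or DESeq2 1.42.0 size factors, no filter, posterior means, annotated length and a prior count of 5. No genome sequence was used, so copies in nuclear DNA were the 6 named copies fixed in the design. Gm10222, a BLASTN 2.17.0 search of annotated transcripts, posterior counts for copies, complex medians over detected genes and the summing of copies with their genes were added after seeing the data. The binomial test covers counting error only.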

Additional observations from a re-analysis of the deposited data

Results flagged for a closer look

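Rows of the M21 tables that name no annotated gene were used in no comparison and held reads in both libraries. The 26248 numbered tRNA rows, which are listed apart from the 22 mitochondrial tRNA genes, summed to 2728.65 estimated counts in library 1 and 2878.51 in library 2, beside 1949 and 2246 in the mitochondrial tRNA genes. The 97 spike-in rows summed to 65856 and 65086 estimated counts. All 4 sums lie above the 3 counts that a count of 0 allows.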

How the results depend on the processing

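The share of TPM in the mitochondrial protein genes, 2.41%, became 1.22% by estimated counts, 2.04% by posterior mean TPM and 3.02% with the chromosome 1 copies added, and it ran from 2.31% to 2.51% without either library. The tRNA share, 0.508%, became 0.00631% by estimated counts and 0.157% with the annotated length in place of the effective length, with 0.465% to 0.552% without either library. The rRNA share, 0.386%, moved by less than its SD under 4 other settings and ran from 0.319% to 0.452% without either library. mt-Nd6 stood at 28.9% of the median of the other protein genes and at 19.2% by estimated counts, where gene length is not removed, with 26.8% to 31.0% without either library. The copies' share of reads, 11.4%, was 19.2% by posterior mean counts and 10.1% to 12.7% without either library. The ratio of mitochondrial to nuclear median TPM in complex IV, 14.1, was 9.46 over detected nuclear genes only and 13.6 to 14.5 without either library. In the 3 other complexes every nuclear gene was detected, so that setting could not move their ratios. Without either library these ran from 2.70 to 3.01 in complex I, 9.81 to 10.3 in complex III and 9.05 to 9.20 in ATP synthase. Posterior mean TPM was not tried for these ratios. With edgeR's exact test and a common dispersion, 0 members were higher and 0 lower in library 2 in place of 15 and 1, and 1 and 0 genes of the nuclear lists in place of 74 and 29. With copies summed in, 0 members were lower, and the log2 ratio of mt-Nd3 changed sign from -0.59 to 0.0048. Library totals, DESeq2 size factors, no filter and posterior counts left 15 members higher and 1 lower. Of the other log2 ratios under other settings, 170 kept their direction and their call and 16 lost the call, all under edgeR's exact test. Leaving out a library left no comparison between them, the genome search for copies was not run because no genome was used, and no paired analysis was possible because there was 1 group. The depth leaves 7 tRNA genes under a summed count of 10, too few to compare.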
